A study of Mus musculus with 5 samples.

Results

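The GIPC adaptor family was followed in condylar cartilage, which covers the head of the jaw joint, from mice that lack Ddr1 and from wild-type mice. The family has 3 genes, Gipc1, Gipc2 and Gipc3, which were found by symbol among the 19938 genes with a row of their own on the array. Each had 1 row, so 3 rows stand for 3 genes. The family was picked because Gipc3 had one of the largest decreases in an earlier comparison of these same arrays, so the genotype values of its members are given as a description. The product of Ddr1 is a cell surface tyrosine kinase with collagen as its ligand. The 5 arrays hold total RNA of knockout mice 2 and 5 (genotype DDR-1-KO) and of wild-type mice 3, 4 and 6, all of strain 129/Sv. RNA came straight from the tissue, and the sources used here give no age, sex or kind of deletion. Dates in the array names form 2 array runs, with knockout 2 and wild type 3 in run 1 and knockout 5 and wild types 4 and 6 in run 2.

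GIPC proteins are cytoplasmic adaptors with a PDZ domain, a fold that grips the tails of membrane proteins. They link receptors that have just been taken up from the cell surface to myosin VI, the motor that walks towards the minus end of actin filaments, and so carry young endocytic vesicles inward from the cell edge. The name stands for GAIP-interacting protein, C terminus, after the G protein regulator GAIP, the product of Rgs19. Gipc1, also called synectin, is the broadly expressed member and binds receptors for growth factors, semaphorins and matrix, among them several used by chondrocytes. Gipc3 is known from the hair cells of the inner ear, where its loss causes deafness in mice and humans. Less is known of Gipc2.

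Levels below are log2 signals made by the authors with RMA, on which 1 unit is a factor of 2, and changes are knockout minus wild type. Changes were taken from limma, a linear model fitted to all genes at once, with p-values adjusted over all 19938 genes by the Benjamini-Hochberg method and a threshold of 0.05. RMA can return the same number for several arrays even where probes differ, so identical values do not show equal expression. Only 18.3% of genes had 3 different wild-type values. Gipc1 and Gipc3 were among them.

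Gipc3 was lower in both knockout mice than in every wild-type mouse. Its level was 5.17 in knockout 2 and 5.11 in knockout 5, against 7.23, 6.98 and 6.71 in wild types 3, 4 and 6. The knockout pair lay close together and the wild-type mice were spread more widely, and 1.54 separated the higher knockout value from the lowest wild-type value. The means were 5.14 ± 0.046 (SD, n = 2) in knockout and 6.97 ± 0.26 (SD, n = 3) in wild type. This made a change of -1.84 (SE 0.179, limma's adjusted p = 0.0346), a knockout signal of 0.28 times the wild-type one and the sixth lowest change of all genes. Within run 1 the difference was -2.06, and within run 2 it was -1.74. In wild type, the Gipc3 signal lay at the 98.1st percentile of all genes. Detection above background was not called, and a percentile compares signals of different probes, so it does not rank transcript numbers.

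Gipc1, the adaptor of most tissues, was lower in knockout cartilage as well. Its signal was 6.13 for knockout 2 and 6.09 for knockout 5, compared with 7.03, 6.97 and 6.94 in wild types 3, 4 and 6. Within each genotype the mice differed by less than 0.1, and a gap of 0.81 lay between the groups. The means were 6.11 ± 0.031 (SD, n = 2) in knockout and 6.98 ± 0.048 (SD, n = 3) in wild type, a change of -0.87 (SE 0.039, limma's adjusted p = 0.015). That is a ratio of 0.55, and 1.88% of all genes had a change as low or lower. The difference was -0.90 within run 1 and -0.87 within run 2.

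Gipc2 differed least, and its change did not pass the threshold. The values were 5.56 in knockout 2 and 5.27 in knockout 5, against 6.05 in wild type 3 and 5.60 in both other wild-type mice. The groups did not overlap, but only 0.041 separated knockout 2 from wild types 4 and 6. Run 1 was the higher in each genotype, and the difference was -0.49 within run 1 and -0.33 within run 2. The fit gave -0.33 (SE 0.2, limma's adjusted p = 0.399), from means of 5.42 ± 0.2 (SD, n = 2) in knockout and 5.75 ± 0.26 (SD, n = 3) in wild type. The change was -0.18 without wild type 3 and -0.19 without knockout 5. It was -0.48 without knockout 2 and -0.41 without wild type 4 or wild type 6. A block for the run gave -0.40 (SE 0.052, limma's adjusted p = 0.106), a setting in which no gene of the table passed.

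**Figure D1:**
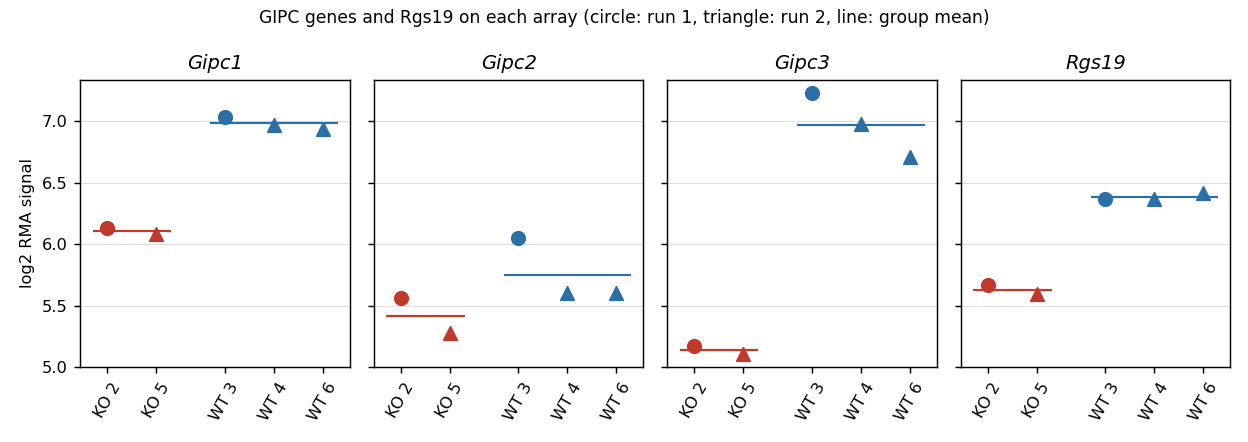
Log2 RMA signal of Gipc1, Gipc2, Gipc3 and Rgs19 on each array (KO, knockout, red, 2 mice; WT, wild type, blue, 3 mice), with circles for run 1, triangles for run 2 and lines at the group means. For Gipc1, Gipc3 and Rgs19 the knockout arrays lie well below the wild-type arrays, and for Gipc2 the gap is 0.041; heights of different genes are not comparable, since probes differ.

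All 3 genes had knockout values below every wild-type value, which held for 18.6% of all genes tested. Gipc1 and Gipc3 passed the threshold as lower, against a background of 2.18% of all genes lower and 3.73% changed in either direction. Among the 9969 genes of brighter mean signal, fitted alone, 391 passed as lower and 55 as higher. These backgrounds are printed for scale only, because the family was chosen on this contrast. The size of the decrease in signal differed between the members. On each array the Gipc3 signal minus the Gipc1 signal was -0.96 in knockout 2 and -0.98 in knockout 5, against 0.20, 0.0080 and -0.23 in wild types 3, 4 and 6. The change of Gipc3 was thus larger than that of Gipc1 by 0.96 on the log2 scale and than that of Gipc2 by 1.5. These differences were not tested, for the same reason. They compare single rows with different probes, so they do not rank the decreases in transcript number.

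The call for Gipc3 and Gipc1 depended on the setting, while the direction did not. For both genes every knockout value lay below every wild-type value, so leaving out an array or blocking the run could not turn the direction. With the array run as a block, cyclic loess, quantile normalisation, or each array centred and scaled, their adjusted p-values lay between 0.0517 and 0.0829. An exact permutation test over the 5 arrays gave p = 0.1 for both genes (two-sided, 2 against 3), the smallest that this design allows. Leaving out any wild-type mouse also ended both calls, at adjusted p-values of 0.106 to 0.2, when no gene of the whole table passed (2312 to 2458 had an unadjusted p under 0.05). The changes themselves ranged from -1.97 to -1.64 for Gipc3 and from -0.90 to -0.64 for Gipc1 over these fits and those without knockout 2 or knockout 5.

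**Figure D2:**
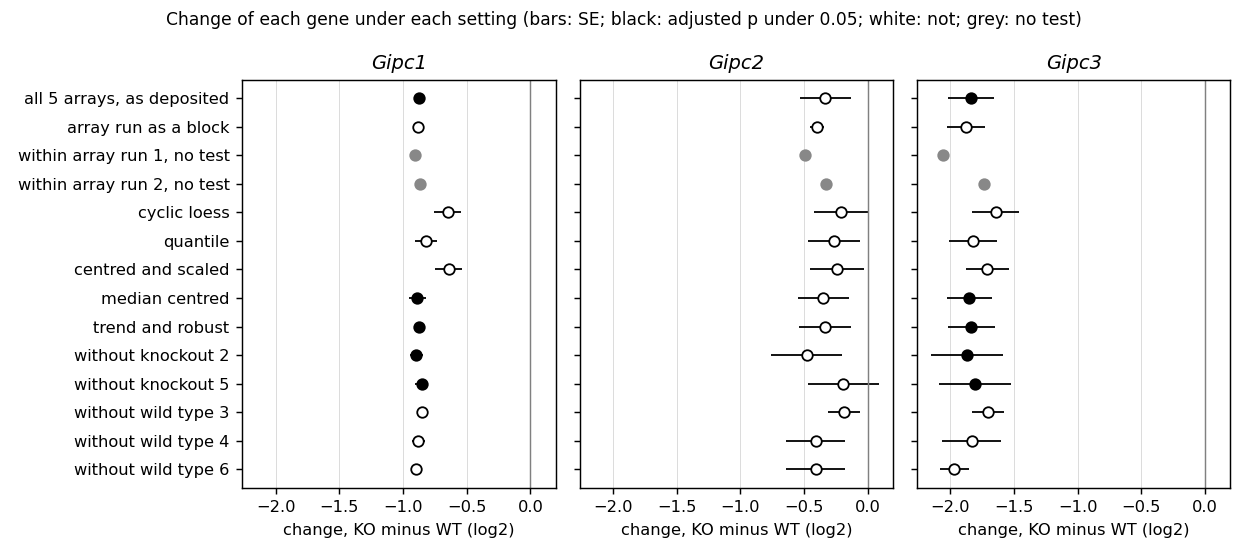
Change of Gipc1, Gipc2 and Gipc3 (knockout minus wild type, log2) under each setting, with SE bars where a model was fitted, black points where the adjusted p was under 0.05, white points where it was not, and grey points for differences within a run. All points lie below 0, Gipc3 between -2.06 and -1.64, Gipc1 between -0.90 and -0.64, and Gipc2 between -0.49 and -0.18.

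The arrays were not equally alike. Across genes, the wild-type arrays had pairwise Pearson correlations of at least 0.984, whereas knockout 2 reached at most 0.837 with any other array and knockout 5 at most 0.927. The signals of knockout 2 had an SD over genes of 0.80 and those of knockout 5 of 0.91, against 0.99 to 1.02 in wild type. Scaling the arrays to a common spread left a change of -1.71 for Gipc3, -0.64 for Gipc1 and -0.24 for Gipc2. Ddr1 had a signal of 5.96 in knockout 2, 5.80 in knockout 5, beside 6.02 in all wild-type mice (change -0.14, limma's adjusted p = 0.377). Where its probes sit relative to the deletion was not examined, so this does not check the labels.

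The cartilage label was set against 12 chondrocyte markers, of which 10 lay above the wild-type median of all genes. So did 6 of 8 skeletal muscle, 3 of 5 osteoblast, 3 of 7 marrow and blood, 2 of 5 endothelial, 2 of 2 Schwann cell and 2 of 3 adipocyte markers, and since signals of different probes are not comparable, these counts do not establish the tissue. The mean log2 signal of the chondrocyte markers was 5.62 to 5.86 in knockout and 5.99 to 6.03 in wild type, and 3 of 12 (Sox9, Comp and Col9a3) passed the threshold as lower, none as higher, beside 2.18% and 1.55% of all genes. With a block for the run or under cyclic loess, no gene of the table passed. The 8 skeletal muscle markers averaged 5.54 to 5.57 in knockout and 5.80 to 5.90 in wild type, with no call. The 7 measured marrow and blood markers averaged 5.41 to 5.52 in knockout and 5.14 to 5.20 in wild type, also with no call. The part of these 3 lists in the values of Gipc1 and Gipc3 was not tested. In whole tissue, fewer cells of a type and less RNA per cell cannot be told apart. For the other lists the ranges overlapped, at 5.71 to 6.03 in knockout and 5.95 to 5.97 in wild type for 5 osteoblast markers, and at 4.79 to 4.99 in knockout and 4.95 to 5.05 in wild type for 5 endothelial markers. For 2 Schwann cell markers they were 5.86 to 5.96 in knockout and 5.82 to 5.90 in wild type, and for 3 adipocyte markers 4.91 to 5.43 in knockout and 5.32 to 5.48 in wild type. These 4 lists held 1 call, that of the lipid droplet gene Cidec, as lower.

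Among cytoplasmic proteins that bind GIPC adaptors or myosin VI, 1 of 12 measured genes passed the threshold as lower and none as higher. Over all genes the shares were 2.18% and 1.55%. An unadjusted p under 0.05 in limma was reached by 2 of the 12, or 16.7%, against 18.2% of all genes. The gene that passed was Rgs19, whose product GAIP quickens the shut-off of G protein alpha subunits and gave the family its name. Rgs19 read 5.66 in knockout 2 and 5.60 in knockout 5, compared with 6.37 in wild types 3 and 4 and 6.42 in wild type 6. Both knockout values were below all wild-type values, with a gap of 0.71. Its change came to -0.76 (SE 0.034, limma's adjusted p = 0.015), with -0.71 in run 1 and -0.80 in run 2. Cyclic loess reduced it to -0.58 (adjusted p = 0.084), and a block for the run left -0.76 (adjusted p = 0.0537). Its wild-type arrays held 2 different values only, so the SE does not fully measure the spread between mice.

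Myo6, the gene of myosin VI itself, had almost the same value everywhere, 4.15 in knockout 2 and 4.14 on each of the other arrays (limma's adjusted p = 0.762). Those arrays held an identical number, at the 16.1st percentile of all genes in wild type, so Myo6 gives little measure of a difference. Its change of 0.0082 turned to -0.17 under cyclic loess and to -0.15 once arrays were centred and scaled. Actn1, the actin crosslinker alpha-actinin, had a change of -0.25 (adjusted p = 0.255), and Plekhg5, whose product binds synectin, had -0.41 (adjusted p = 0.337). For Plekhg5 the difference came to -0.65 within run 1 and -0.17 within run 2. Tax1bp1, an autophagy adaptor for myosin VI, had 0.072 (adjusted p = 0.317), which turned to -0.11 after cyclic loess. The median over the 12 genes was -0.055, beside -0.0083 over all genes. It was -0.11 after cyclic loess, beside -0.017 over all genes, and -0.14 with arrays centred and scaled, beside -0.026.

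Of the membrane proteins known to bind a GIPC PDZ domain, 20 of the 23 listed were measured, and none passed limma's threshold, which 3.73% of all genes did. At an unadjusted p under 0.05 there were 2, or 10.0%, against 18.2% of all genes. Their median change was -0.21, and 15 of 20 lay below 0, against 51.1% of all genes. The median was -0.43 in run 1 but -0.03 in run 2, and cyclic loess left -0.097. Knockout values lay below all wild-type values for 7 of the 20, or 35.0%, against 18.6% of all genes, and above them for none, against 13.0%. In knockout 5, 9 of the 20, or 45.0%, had exactly the value of a wild-type array, as did 33.6% of all genes.

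Drd3, the dopamine D3 receptor, had the lowest change, -0.69 (SE 0.183, limma's adjusted p = 0.176). Knockout 2 had 4.69 and knockout 5 had 5.20, against 5.74, 5.60 and 5.58 in wild types 3, 4 and 6. Slc2a1, a glucose transporter that binds synectin, showed 5.83 in knockout 2 and 6.03 in knockout 5 beside 6.29 in wild type 3 and 6.21 in the other wild-type mice. Its change of -0.31 (adjusted p = 0.15) did not pass. The semaphorin receptor Plxnd1 had -0.45 (adjusted p = 0.291) and the endocytic receptor Lrp1 had -0.34 (adjusted p = 0.378). Without knockout 2 the changes became -0.43 for Drd3, -0.21 for Plxnd1 and -0.15 for Lrp1. Without knockout 5 they became -0.95 for Drd3, -0.69 for Plxnd1 and -0.53 for Lrp1. In Drd3, Slc2a1, Plxnd1 and Lrp1 knockout 2 was the lowest array and knockout 5 the next.

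The cargo receptors with a known place in cartilage gave no call either. Igf1r, the receptor of insulin-like growth factor, showed 4.67 in knockout 2 and 4.97 in knockout 5 beside 5.27 in wild type 3 and 5.04 in the others (change -0.30, limma's adjusted p = 0.399). Itga5, a chain of the fibronectin receptor, showed 4.44 in knockout 2 and 4.95 in knockout 5 and 4.96 to 5.13 in wild type (change -0.34, adjusted p = 0.399). Without knockout 2 these changes became -0.14 for Igf1r and -0.081 for Itga5, and without knockout 5 -0.45 for Igf1r and -0.59 for Itga5. Nrp1, the semaphorin and VEGF co-receptor, read 4.93 on all 5 arrays, and Tgfbr3, the TGF-beta co-receptor betaglycan, read 5.42 on all 5. Since RMA can return identical values, Nrp1 and Tgfbr3 give no measure of a difference.

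Because Gipc3 is known from hearing, 40 genes of the hair bundle, the hair cell synapse and other parts of the inner ear were listed, and 36 were measured. Of these, 3 passed the threshold as lower (8.33%, beside 2.18% of all genes) and none as higher, while 33 did not pass. An unadjusted p under 0.05 in limma was reached by 7 of the 36, or 19.4%, against 18.2% of all genes. With a block for the run none of the 3 passed, at adjusted p-values of 0.0517 for Slc17a8 and Espn and 0.0528 for Pcdh15. The median change was -0.085, with -0.10 within run 1 and 0 within run 2, and 23 of 36 lay below 0.

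Slc17a8, the glutamate transporter that fills synaptic vesicles in inner hair cells, had the lowest adjusted p of the list. It read 4.02 in knockout 2 and 4.09 in knockout 5, compared with 5.03, 5.04 and 5.03 in wild types 3, 4 and 6. The fit gave -0.98 (SE 0.029, limma's adjusted p = 0.0125), and -1.04 after cyclic loess (adjusted p = 0.0503). Espn, an actin bundler of stereocilia, read 5.58 in knockout 2 and 5.43 in knockout 5, compared with 6.39 in wild type 3 and 6.26 in the others. Its change was -0.80 (SE 0.076, adjusted p = 0.0339), and -0.63 after cyclic loess (adjusted p = 0.102). In each case both knockout mice lay below all wild-type mice.

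Pcdh15, a cadherin of the tip links that open the hair cell channel, had 2 rows that differed. The brighter row read 5.90 in knockout 2 and 5.84 in knockout 5, compared with 6.51, 6.52 and 6.47 in wild types 3, 4 and 6 (change -0.63, SE 0.031, limma's adjusted p = 0.016). In the other row knockout 2 and wild types 4 and 6 shared a value of 5.15, knockout 5 was at 4.41 and wild type 3 at 5.42. The 2 rows averaged gave -0.54 (adjusted p = 0.179), which did not pass. Tmc2, a channel protein of developing hair cells, pointed the other way at 0.49 (adjusted p = 0.0693). Pou4f3, Atoh1 and Gfi1, hair cell transcription factors on the list, were named after their values were seen. Pou4f3 had 0.049 (adjusted p = 0.479), Atoh1 had -0.80 (adjusted p = 0.399) and Gfi1 had -0.22 (adjusted p = 0.399). Atoh1 read 3.91 in knockout 2, while knockout 5 shared the 5.34 of wild types 4 and 6. The wild-type arrays held only 2 different values for Slc17a8, Espn and Tmc2.

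**Figure D3:**
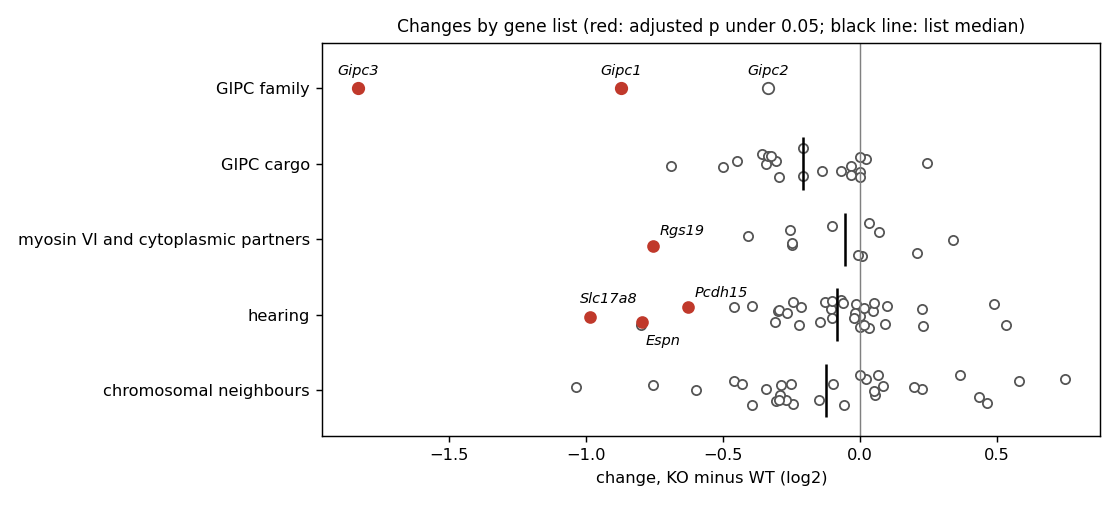
Change of each measured gene (knockout minus wild type, log2) in the GIPC family and in the 4 lists, with red points for adjusted p under 0.05, white points otherwise and black lines at the list medians. Gipc3 at -1.84 lies below every gene of the lists, whose lowest change is -1.04, and Rgs19, Slc17a8, Espn and Pcdh15 are the calls among listed genes.

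The 3 family genes lie on different mouse chromosomes, Gipc1 on 8, Gipc2 on 3 and Gipc3 on 10, and none shares the chromosome of Ddr1, which is 17. The 5 nearest measured protein-coding genes on each side of each member, 30 in all, held no call in limma, where 3.73% of all genes were called. At an unadjusted p under 0.05 there were 5, or 16.7%, against 18.2% of all genes. Their median change was -0.12, and 17 of 30 lay below 0, or 56.7%, against 51.1% of all genes. Next to Gipc3, the thromboxane receptor gene Tbxa2r had 0.20 (limma's adjusted p = 0.399) and Hmg20b, on the other side, had -0.29 (adjusted p = 0.399). Both were named for their place, after their values were seen. The lowest change of the 30 was -1.04, for Ndufb7 near Gipc1, a subunit of respiratory complex I (adjusted p = 0.183), with 4.94 in knockout 2 and 5.75 in knockout 5 beside wild-type values of 6.27 to 6.46. By lowest p, the neighbours were led by the interferon-induced gene Ifi44l near Gipc2 (0.43, adjusted p = 0.0638), the prostaglandin receptor gene Ptger1 near Gipc1 (-0.46, adjusted p = 0.0833) and 4930404N11Rik near Gipc3 (-0.60, adjusted p = 0.18).

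The genes whose pattern over the 5 arrays was most like that of Gipc3 were Pfn3, Timm13, Lamtor1, Lhpp and Mrfap1. Likeness was the root mean square difference between the 5 values of each gene, centred on its own mean. It was 0.159 for Pfn3, a testis profilin, 0.198 for the mitochondrial import subunit Timm13, 0.199 for the lysosomal scaffold gene Lamtor1, 0.209 for the phosphatase Lhpp and 0.219 for Mrfap1. Pfn3 read 5.35 in knockout 2 and 5.60 in knockout 5, compared with 7.26, 7.08 and 6.89 in wild types 3, 4 and 6. All 5 genes were highest in wild type 3 and lowest in wild type 6 among the wild-type mice, as Gipc3 was. They were picked for likeness to these same values, so the shared order is no separate finding. Knockout 2 was below knockout 5 in Pfn3, Timm13, Lamtor1 and Lhpp, but not in Gipc3 or Mrfap1. Changes ran from -1.998 for Lamtor1 to -1.45 for Mrfap1, whose adjusted p was 0.0811. The second row of Lamtor1 had -0.76 (adjusted p = 0.4) and that of Mrfap1 had -0.42 (adjusted p = 0.172). By the same measure Gipc1 ranked 209th at 0.49 and Gipc2 ranked 2517th at 0.744. The measure is not scaled, so it depends on the size of a change as well as on its shape. Gipc1, with a change of -0.87, had its 5 arrays in the same order as Gipc3.

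**Figure D4:**
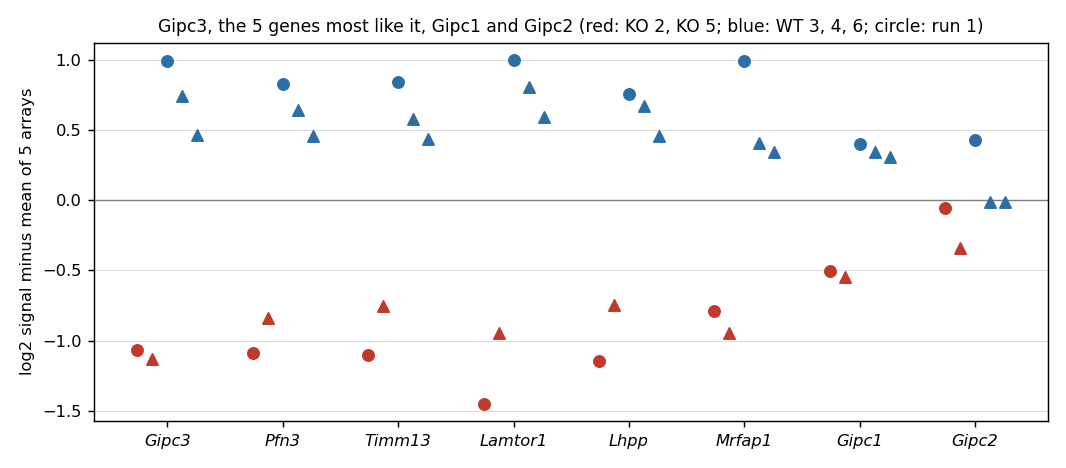
Log2 signal minus the mean of the 5 arrays for Gipc3, the 5 genes most like it, Gipc1 and Gipc2, with knockout in red, wild type in blue, circles for run 1 and triangles for run 2. In the first 6 genes the knockout arrays lie below the mean and the wild-type arrays above it, in the order wild type 3, 4 and 6 from the top, and the spread narrows in Gipc1 and Gipc2. The 5 genes were chosen for this likeness.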

How the data were processed

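The deposited table holds log2 values for 5 mouse gene 1.0 ST arrays, made by the authors with Affymetrix Expression Console and RMA, per the submitters' processing notes; no source used here names a version or a build. Of 35556 rows, 21789 carried 1 gene symbol in the platform annotation, updated by gene identifier through the GRCm38.p6 gene table (19856 genes matched). A gene with several rows was represented by the brightest one. The genotype contrast was fitted in R 4.3.3 with limma 3.58.1 (lmFit, eBayes), knockout minus wild type, without covariates. The fit was also run on simulated data with normal residuals. Those data lacked the identical values that 87.3% of genes held on at least 2 arrays, so they do not test the fit under that feature. The number of arrays, 2 against 3, limits the precision. The labels name each array's mouse, and p-values measure the spread between these mice and arrays together. Where arrays hold identical values, they do not fully measure that spread. In 39.1% of genes all 3 wild-type values were identical.

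The members and gene lists were chosen with earlier results of these data known. Genes named were the family, the 4 of lowest p and every call in each list, 6 partners fixed by name, and the 5 most like Gipc3. Outside this rule, Ddr1 was named as the deleted gene. Tbxa2r, Hmg20b, Pou4f3, Atoh1, Gfi1 and the markers Cidec, Sox9, Comp and Col9a3 were named after their values were seen. Neighbours followed the RefSeq gene order. Alternatives covered the array run, scaling, rows, brightness, variance model, test and each array left out.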

Additional observations from a re-analysis of the deposited data

How the results depend on the processing

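With 2 knockout arrays against 3 wild-type arrays, the calls rest on a small spread within groups. Mice were not paired one to one, because the labels name no pairs and the groups share no replicate number. The array runs, each with both genotypes, were fitted as a block instead. The direction of Gipc1, Gipc2 and Gipc3 was the same under every alternative run. Their knockout values all lay below their wild-type values, so leaving out an array or blocking the run could not turn it. With the array run as a block, Gipc3 was at -1.88 (adjusted p = 0.0671) and Gipc1 at -0.88 (adjusted p = 0.0517). Cyclic loess gave -1.64 (adjusted p = 0.0555) and -0.65 (adjusted p = 0.0829), quantile normalisation -1.82 and -0.82 (adjusted p = 0.0568 for both), and arrays centred and scaled -1.71 (adjusted p = 0.0525) and -0.64 (adjusted p = 0.0808). Each of these 4 settings left 0 genes higher and 0 lower over the whole table in limma, while 3829, 4155, 4109 and 3795 genes had an unadjusted p under 0.05, so the list calls were 0 too. The exact permutation test kept -1.84 and -0.87 at p = 0.1, and Gipc3 was at -2.06 within run 1. Among brighter genes 55 were higher, in place of 309, and 391 lower, in place of 435, with 9969 genes tested. The median change of these brighter genes was -0.135, beside -0.0083 over all genes. Leaving out 1 array gave -1.97 to -1.71 for Gipc3, -0.90 to -0.85 for Gipc1 and -0.48 to -0.18 for Gipc2. It gave 0 to 3930 genes higher and 0 to 6069 lower, with 0 whenever a wild-type array was left out (2312 to 2458 at an unadjusted p under 0.05). The counts without a knockout array assume that the lone knockout varies like wild type. Over the same fits, the cargo list held 0 to 3 genes higher and 0 to 9 lower, the myosin VI list 0 to 2 and 0 to 5, the hearing list 0 to 7 and 0 to 12, and the neighbours 0 to 7 and 0 to 13. Among the other named genes, Tax1bp1 turned to -0.11 after cyclic loess, -0.13 with quantile normalisation and -0.090 with arrays centred and scaled. Myo6 turned to -0.17, -0.20 and -0.15 under the same settings and to -0.0065 with arrays centred on the median. The cause of these moves was not tested. Array weights could not be fitted, because their estimation did not converge.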
